A study of Drosophila melanogaster with 164 samples.

Results

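Oxidative phosphorylation is carried out by 5 protein complexes of the inner mitochondrial membrane, and the nuclear genes for their subunits were the subject of these comparisons. Members were all genes of the deposited count table whose FlyBase symbol starts with ND- (complex I), Sdh (complex II), UQCR- (complex III), COX (complex IV) or ATPsyn (ATP synthase). The rule gave 61 of the 7414 genes in the table, of which 31 belonged to complex I, 5 to complex II, 6 to complex III, 8 to complex IV and 11 to ATP synthase. The reference annotation (Ensembl, BDGP6) holds 88 genes with these prefixes, and the other 27 were not analysed here; 24 of those 27 carry the names of duplicate genes, such as COX4L and ATPsynbetaL. Sdhaf3, an assembly factor rather than a subunit, entered complex II by its spelling alone.

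Complex I (NADH dehydrogenase) and complex II (succinate dehydrogenase) pass electrons from NADH and succinate to ubiquinone, complex III passes them on to cytochrome c, and complex IV (cytochrome c oxidase) passes them to oxygen. Complexes I, III and IV pump protons, and ATP synthase uses the resulting gradient to make ATP. Complex II is also an enzyme of the citric acid cycle. Most subunits are encoded in the nucleus, and the remaining ones, in complexes I, III and IV and in ATP synthase, are encoded by mitochondrial DNA, so that each of these complexes needs products of both genomes.

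The study used 41 lines of the Drosophila Genetic Reference Panel (Drosophila melanogaster inbred from 1 outbred population), sampled as whole bodies, and asked whether differences in expression between lines carry over metamorphosis. Each genotype was sampled as larvae and as adults with 2 biological replicates per line and stage, reared at 25 °C without any treatment. Larvae were unsexed, feeding, last-instar animals taken from the food once the first wandering larva was seen; adults were collected over 48 h from the first emergence and held for 4 days before freezing, and their sex is not given in the labels. Every library was a pool of 2 to 31 animals from a pair of vials, with a median of 20 larvae or 17 adults, and each line is a single inbred genotype. After 2 larval libraries with identical counts under different line labels were left out, 80 larval and 82 adult libraries remained. Over all 82 larval columns, with the 2 left-out ones included, totals over the table ranged from 2407244 to 26429404 counts (median 10845004). In adults they ranged from 2748964 to 20421026 (median 8670311). Larval and adult libraries were sequenced in separate pools (12 and 7), so pool and stage cannot be told apart, and in whole-body RNA fewer cells of a type and less RNA per cell cannot be told apart. Replicate 2 of the larvae of DGRP882, DGRP897 and DGRP911 matched adults of other lines in earlier work on these data, and counts without these 3 libraries are given beside the results where a call changed.

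The genes of the 5 complexes differed widely in their level. Together the 61 genes made up 1.91% of a larval library at the median (lowest 1.38%, highest 2.89%) and 2.12% of an adult library (1.38% to 2.95%). ATP synthase genes held the highest share at both stages, at medians of 0.872% in larvae and 0.782% in adults. Complex II genes held the lowest share, at medians of 0.0870% and 0.175%. These shares are sums over the genes of a complex, so they also depend on how many genes it has. The share of complex I genes was 0.486% in larvae and 0.650% in adults, that of complex III genes 0.159% and 0.214%, and that of complex IV genes 0.311% and 0.285%. In both stages a few genes stood above the others per kilobase of exon. ATPsynbeta, which encodes a catalytic subunit of the ATP synthase head, was at 1321 ± 242 CPM per kilobase (counts scaled to the same library total, per exon length) in larvae and 1283 ± 220 in adults (SD, n = 80 and 82). ATPsynC, the subunit of the rotating ring, was at 1036 ± 211 and 849 ± 129 CPM per kilobase. ND-MLRQ, a small subunit named for complex I, was at 897 ± 226 and 1064 ± 282 CPM per kilobase, which made it the highest of the complex I genes. The highest of complex IV was COX7B, at 857 ± 164 and 793 ± 171 CPM per kilobase, and the highest of complex III was UQCR-14, at 673 ± 126 and 765 ± 174. SdhC, a membrane anchor, led complex II at 254 ± 46.3 and 342 ± 73.1 CPM per kilobase. Sdhaf3 was the lowest member, at 21.5 ± 4.73 and 26.0 ± 5.57 CPM per kilobase. The ranges of the larval and adult libraries overlapped for each of these genes. Averaged over genes, complex I was at medians of 168.4 CPM per kilobase in larvae and 217.1 in adults. The 4 complex II subunits without Sdhaf3 were at 170.5 and 294.6, and complex II with Sdhaf3 at 141.0 and 241.2. Complex III, complex IV and ATP synthase were higher than both at each stage.

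The first comparison asked how the complexes differed between feeding larvae and adults. With counts scaled by TMM factors, complex II genes were higher in adults, most complex IV and ATP synthase genes were higher in larvae, and complexes I and III were split. Of the 61 genes, 17 were higher in adults and 30 higher in larvae at an adjusted p under 0.05 (quasi-likelihood F test of edgeR, blocked by line, Benjamini-Hochberg adjustment over all genes), and 14 did not pass. Over all genes tested the same test called 44.9% higher in adults and 47.8% higher in larvae, so passing the test was common in this table. The changes of the subunit genes were small beside those of other genes: their median absolute log2 fold change was 0.29, against 0.63 over all genes, and it exceeded 1 in only 3 of the 61, SdhA, ND-51 and COX7A. The direction was the same in all 41 lines for 8 of the 61, against 44.6% of all genes.

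Complex II had the highest median log2 fold change (adults minus larvae), 0.16, or 0.41 for the 4 subunits without Sdhaf3. SdhA (FBgn0261439; BDGP6 chromosome 2R, 19391863 to 19395971, minus strand), the flavoprotein that oxidises succinate, was at 186 to 495 CPM in larvae with a median of 287, and at 552 to 1368 CPM in adults with a median of 851. Every adult library was above every larval one. The difference was 1.26 ± 0.05 on the log2 scale (SE; adjusted p = 1.1e-53), and it was higher in adults in 41 of 41 lines. SdhB, the iron-sulphur subunit, rose from a median of 187 CPM (92.3 to 367) to 358 CPM (138 to 632), with overlapping ranges, a log2 fold change of 0.65 ± 0.07 and an adjusted p of 3.3e-15. The membrane anchors SdhC and SdhD changed less, by 0.16 ± 0.05 and 0.11 ± 0.05 (adjusted p = 7.5e-04 and 0.0212). Both anchors lost the call without replicate 1 (0.06 and 0.10), and SdhD also without replicate 2 (0.15). The difference between the mean log2 CPM of SdhA with SdhB and that of SdhC with SdhD was higher in adults than in larvae in 41 of 41 lines, with medians of 1.06 and 0.26 over libraries. This pairing was made after the values of the 4 genes were seen, so it restates them and carries no test of its own.

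Complex I was divided, with 10 genes higher in adults, 11 higher in larvae and 10 not passing, and a median log2 fold change of -0.02. ND-51 (FBgn0031771; chromosome 2L, 6060842 to 6062757, minus strand), the flavoprotein at which NADH is oxidised, was at 173 to 431 CPM in larvae with a median of 279 and at 444 to 1254 CPM in adults with a median of 705. It was the only gene besides SdhA among the 61 whose larval and adult libraries did not overlap; 10.7% of all genes were separated in this way. Its log2 fold change was 1.10 ± 0.05 (adjusted p = 3.3e-46). ND-23, an iron-sulphur subunit, followed at 0.90 ± 0.04, with medians of 116 CPM in larvae and 248 CPM in adults, and was higher in adults in 41 of 41 lines; the highest larval library was at 164 CPM and the lowest adult library at 161 CPM. At the other end, ND-B14.5A, an accessory subunit, was lower in adults by -0.54 ± 0.07, with medians of 75.5 and 62.1 CPM. ND-ACP, the mitochondrial acyl carrier protein, fell by 0.53 ± 0.04 on the log2 scale and was higher in larvae in 41 of 41 lines, while its libraries ranged from 139 to 467 CPM in larvae and from 105 to 371 CPM in adults.

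The complex I genes were also grouped by the roles of the subunits. This grouping was made after the values were seen and carries no test of its own. The conserved core of the matrix arm, which binds the flavin and most of the iron-sulphur clusters or the quinone site, is encoded by ND-75, ND-51, ND-24, ND-49, ND-30, ND-20 and ND-23. Of these 7, 6 were higher in adults and none was higher in larvae; ND-30 did not pass, at -0.02 ± 0.05. The median log2 fold change of the 7 was 0.56. Among the 24 accessory subunits, 11 were higher in larvae, 4 were higher in adults and 9 failed to pass, at a median of -0.04. The accessory gene ND-13A stood above 5 of the 7 core genes, at 0.65 ± 0.04, and was higher in adults in 41 of 41 lines. Without replicate 1, ND-30 was called higher in larvae, at -0.16. Within a library the mean log2 CPM of the core was above that of the accessory genes by a median of 0.56 in larvae (0.20 to 1.06). In adults the median was 1.23 (0.93 to 1.67). This gap, which does not depend on how libraries are scaled to each other, was wider in adults in 41 of 41 lines. It is not divided by exon length, which differs between the 2 groups, so only its change between the stages can be read.

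Complex III had 3 genes higher in adults, 2 higher in larvae and 1 not passing. UQCR-Q, a small subunit, rose from a median of 178 CPM to 328 CPM (0.60 ± 0.05, adjusted p = 9.0e-22), and UQCR-C2, a core protein, from 262 to 410 CPM (0.39 ± 0.08, adjusted p = 9.7e-06). The other core protein, UQCR-C1, rose by 0.14 ± 0.06. UQCR-11 was lower in adults at -0.28 ± 0.05, and UQCR-14 at -0.09 ± 0.04 (adjusted p = 0.0435), although its median CPM was 337 in larvae and 380 in adults; CPM values are of the library total, whereas fold changes include the TMM scaling factors. The gene that did not pass was UQCR-6.4.

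All 8 complex IV genes had log2 fold changes below 0, with a median of -0.32, and 7 of them were called higher in larvae. COX7A (FBgn0040529; chromosome 3R, 8339944 to 8341043, minus strand), a supernumerary subunit, was at 217 to 675 CPM in larvae with a median of 423 and at 134 to 433 CPM in adults with a median of 227. Ranges overlapped, but the gene was higher in larvae in 41 of 41 lines, by a log2 fold change of -1.09 ± 0.04 (adjusted p = 4.3e-49). COX7C was next, at -0.47 ± 0.04, with medians of 353 and 298 CPM. The smallest differences were those of COX5A (-0.24 ± 0.06), with medians of 471 CPM in larvae and 482 CPM in adults, and COX4 (-0.09 ± 0.05, not passing), with medians of 459 and 525 CPM; COX5A was not called without replicate 2 (-0.11).

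All 11 ATP synthase genes were also below 0 (median -0.30), and 10 were called higher in larvae. ATPsyngamma, the central stalk that turns inside the head, was at 430 to 1000 CPM in larvae with a median of 612 and at 276 to 701 CPM in adults with a median of 472. Its log2 fold change was -0.68 ± 0.05 (adjusted p = 4.3e-29), with higher values in larvae in 41 of 41 lines and overlapping libraries. ATPsynF, a subunit of the membrane part, had the same size of difference (-0.69 ± 0.06). ATPsyndelta, also of the central stalk, was at -0.68 ± 0.05, and ATPsynC at -0.54 ± 0.04. ATPsynbeta moved less, by -0.30 ± 0.04, and ATPsynE did not pass, at -0.10 ± 0.05; without the 3 larval libraries named above it was called, at -0.12, which made 31 members higher in larvae. The peripheral stalk genes ATPsynO, ATPsynB, ATPsynD and ATPsynCF6 lay between -0.29 and -0.18.

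**Figure D1:**
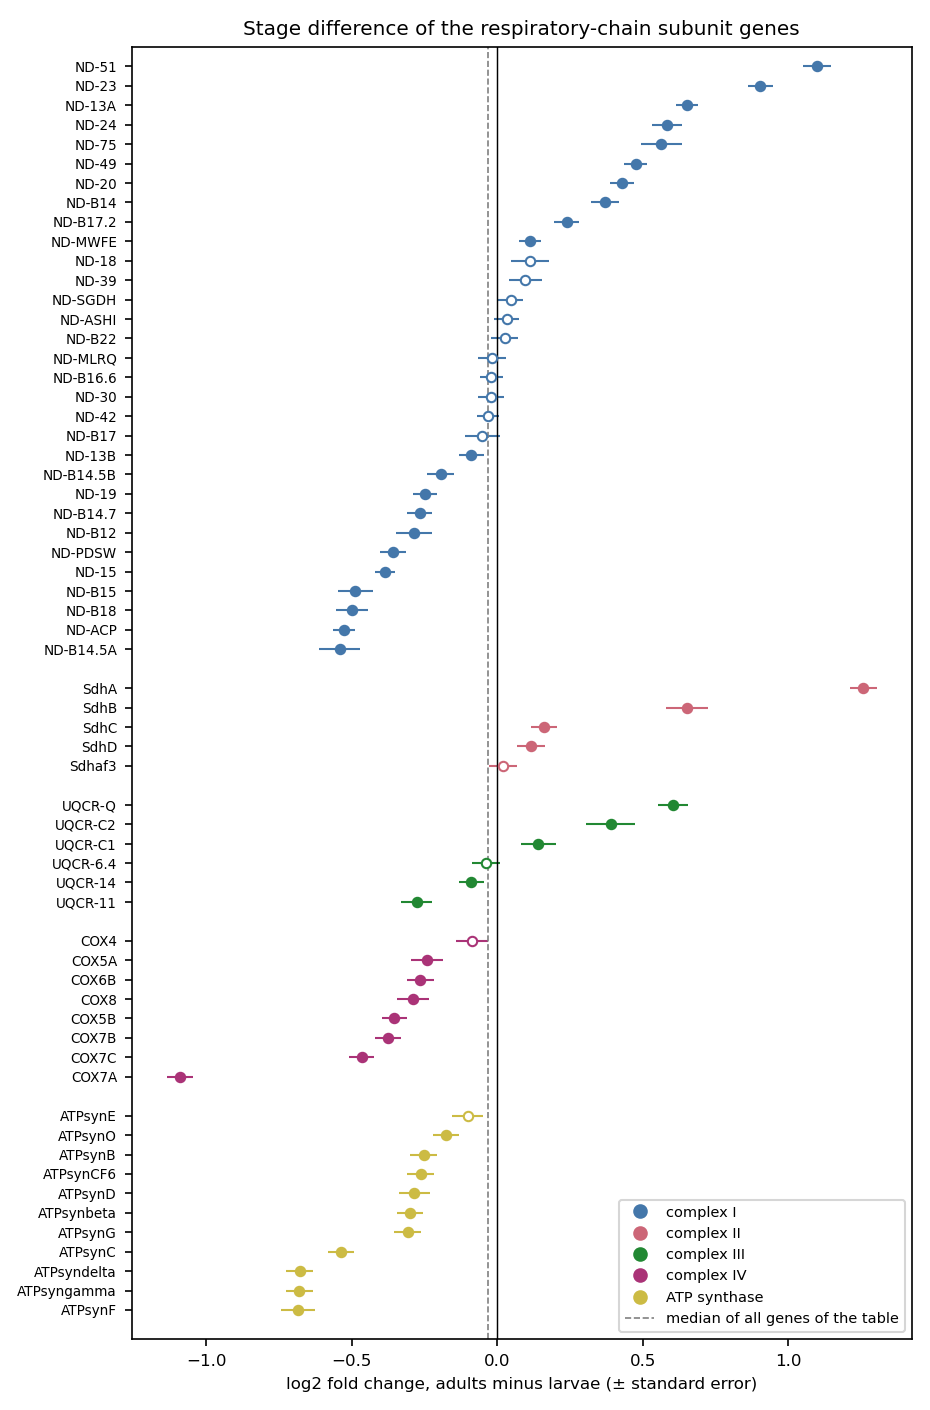
Log2 fold change of adults against larvae for each of the 61 genes, ordered within complexes; points are estimates of the fit with standard errors, open points did not pass an adjusted p of 0.05, and the dashed line is the median of all genes. Complex II lies to the right of 0, complexes IV and ATP synthase to the left, and complex I runs from ND-51 at 1.10 to ND-B14.5A at -0.54.

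These directions hold for the TMM scaling. With library totals in place of TMM factors the median of all genes moved from -0.03 to 0.22, and the subunit genes split into 33 higher in adults and 14 higher in larvae; 70.2% of their calls were then on the adult side, against 36.2% with TMM, and for all genes 60.7% against 48.5%. All 17 genes called higher in adults with TMM were also called so with library totals, and 14 of the 30 called higher in larvae were. Of the genes called higher in larvae with TMM, 4 of 7 in complex IV and 4 of 10 in ATP synthase kept that call. With library totals 1 gene of complex IV and 1 of ATP synthase were called higher in adults. Under that scaling the direction differed for 15 of the 61, and of the genes named by rule ND-MLRQ (0.23), UQCR-14 (0.17), COX4 (0.17), COX5A (0.01), ATPsynE (0.15) and ATPsynO (0.08) turned to values above 0. The complexes kept their order relative to the median gene: complex II was at 0.42, complex III at 0.31, complex I at 0.24, ATP synthase at -0.05 and complex IV at -0.07.

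Differences between complexes within a library need no scaling. They are not divided by exon length, so only their change between the stages can be read. The mean log2 CPM of the 4 complex II subunits lay below that of the ATP synthase genes by a median of -1.32 in larvae (-1.78 to -0.83) and -0.37 in adults (-0.68 to -0.09). These values did not overlap between the stages in any library. The difference of complex II from complex I was also higher in adults in 40 of 41 lines, at medians of 0.61 in larvae and 1.10 in adults. Complex I stood below ATP synthase by medians of -1.93 in larvae and -1.48 in adults, with the smaller gap in adults in 41 of 41 lines. Complex IV and ATP synthase kept their balance, at medians of -0.50 in larvae and -0.49 in adults, with 19 lines higher in adults and 22 higher in larvae. Complexes I and III were also close, at -0.73 and -0.80.

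**Figure D2:**
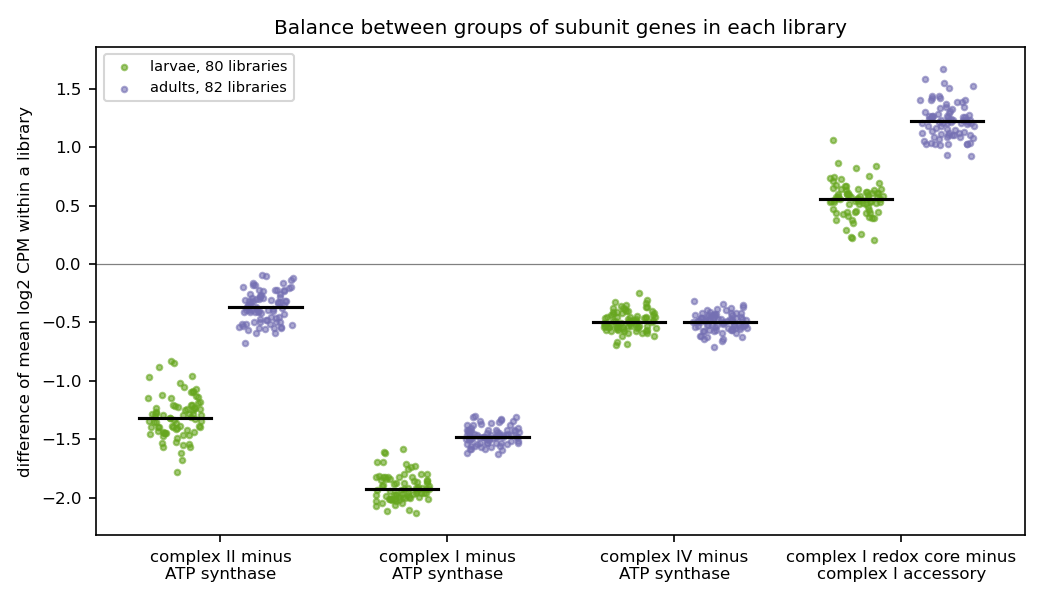
Difference between the mean log2 CPM of 2 groups of subunit genes within each library, for 80 larval and 82 adult libraries; each point is a library and black bars are medians. Complex II against ATP synthase separates the stages fully, complex IV against ATP synthase has medians of -0.50 and -0.49, and the core of complex I stands further above the accessory subunits in adults. Values are not divided by exon length.

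Several measured properties moved with the stage difference. Over all genes with a known length, longer genes were higher in adults (Spearman's rho between exon length and log2 fold change 0.47 across 7349 genes, which are not independent replicates), and the median log2 fold change was -0.52 among the 901 genes of up to 1000 bp and 0.70 among the 1684 genes over 4000 bp. Of the 61 subunit genes 40 were of up to 1000 bp, and their median was -0.19. The complex I core genes had a median exon length of 1336 bp and the accessory genes 825 bp; rho was 0.28 across the 61 genes, 0.38 within complex I, 1.00 over the 4 subunits of complex II, 0.37 within complex III, 0.48 within complex IV and -0.25 within ATP synthase; it was 0.15 among the accessory genes and 0.00 among the 7 core genes of complex I. Of 20 muscle markers, 13 were higher in larvae and 5 in adults; their summed level ran from 12966 to 52894 CPM in larvae (median 30649) and from 11112 to 25286 CPM in adults (median 17042). The only flight muscle marker in the table, Strn-Mlck, went the other way, with a log2 fold change of 2.72 and medians of 59.1 CPM in larvae and 450 CPM in adults. All 4 testis markers in the table, of 26 listed, were higher in adults, at summed medians of 310 and 6452 CPM. Of the 4 fat body markers in the table, 3 were higher in adults and 1 in larvae. The fat body list held 11 genes, and Lsp1alpha, Lsp1beta, Lsp1gamma, Lsp2, Fbp1 and Fbp2 were among those not in the table. Of 11 midgut markers 6 were higher in larvae and 4 in adults, and their log2 fold changes ran from -3.69 to 3.47. Of 15 listed ovary markers only 2, gus and CycB, were in the table, and 1 was higher in each stage. The part of gene length or of muscle, testis, fat body, midgut or ovary RNA in the stage difference was not tested.

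Other genes of the same machinery, from lists that were drawn up by function, were divided as well. A list of 8 nuclear genes whose names lack the prefixes, for subunits and cytochrome c, held 3 higher in each stage and 2 that failed to pass, at a median of -0.05. RFeSP, the Rieske iron-sulphur protein of complex III, was the highest at 0.48 ± 0.08, followed by ox, a small complex III subunit, at 0.23 ± 0.04. The lowest were sun, the epsilon subunit of ATP synthase, at -0.80 ± 0.04, and levy, a complex IV subunit, at -0.45 ± 0.07. Of the 10 subunits encoded by mitochondrial DNA in the table, 5 were higher in adults and 5 did not pass (median 0.33); mt:CoI was at 0.69 ± 0.12 and mt:ND5 at 0.48 ± 0.12, while mt:CoII and mt:CoIII were at -0.02 ± 0.09 and -0.12 ± 0.15. The mitochondrially encoded genes varied far more between libraries than the nuclear ones, from 0.625% to 4.99% of the counts in larvae and from 0.691% to 10.6% in adults.

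Among 14 assembly factors, 4 were higher in adults and 9 higher in larvae (median -0.12). Cchl, which attaches haem to cytochromes c, was at 0.94 ± 0.04 and Letm1, an inner-membrane protein, at 0.82 ± 0.04, against Sirup, needed for complex II assembly, at -0.76 ± 0.08 and Bcs1, which inserts the Rieske protein into complex III, at -0.66 ± 0.04. Among 7 carriers of the inner and outer membrane 3 were higher in each stage (median -0.06). Ant2, a second ADP/ATP carrier, had the largest difference at 3.14 ± 0.08, from a median of 14.3 CPM in larvae to 152 CPM in adults, and Mpcp1, a phosphate carrier, was at 1.84 ± 0.08; the lowest were porin at -0.31 ± 0.04 and Ucp4A at -0.23 ± 0.05. The 12 regulators of mitochondrial genes divided into 7 on the adult side and 5 on the larval side (median 0.10): foxo was at 1.28 ± 0.04 and ERR, a nuclear receptor that controls metabolic genes, at 0.56 ± 0.03, against mtSSB, which binds single-stranded mitochondrial DNA, at -1.72 ± 0.05 and srl, the fly PGC-1 homologue, at -0.70 ± 0.06.

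The second comparison asked how far the lines differed in these genes at each stage. In adults most subunit genes differed between lines, and in larvae few did. The edgeR quasi-likelihood F test over the line coefficients called 50 of 61 in adults, against 68.5% of all genes, and 7 of 61 in larvae, against 46.6% of all genes. The 7 larval genes were ND-15, ND-SGDH, COX6B, COX8, ATPsynD, ATPsynF and ATPsynG, and each was also among the 50 called in adults, so that 7 of 61 were called at both stages, against 38.4% of all genes. In larvae no gene of complex II or III was called by edgeR (none at an unadjusted p under 0.05 either); DESeq2 called 1 of 6 in complex III, none in complex II and 22 of the 61 in all, against 67.0% of all genes. In adults all 8 complex IV genes and all 5 of complex II were called, 5 of 6 in complex III, 25 of 31 in complex I and 7 of 11 in ATP synthase. The larval count depended on the model: it was 2 with sequencing pool as a factor (30.9% of all genes), 3 with roX1, a marker of male RNA, as a covariate (47.9%) and 4 with library totals (54.4%). Without the 3 larval libraries it was 5 (47.8% of all genes): ATPsynD, ATPsynF and ATPsynG were no longer called and ND-B14 was. The adult count was 35 of 61 with library totals, against 61.5% of all genes. It was 50 with sequencing pool as a factor (70.7% of all genes), 55 with DESeq2 (78.3%) and 59 with roX1 as a covariate (81.1%).

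The intraclass correlation, which is the part of the variance among libraries that is found between lines, described the same contrast. Its median over the 61 genes was 0.10 in larvae, against 0.27 over all genes, and 0.39 in adults, against 0.39 over all genes. It was higher in adults for 59 of the 61 genes, and below 0 in larvae for 15. The spread between line means was similar at both stages, with a median SD of 0.26 log2 units in larvae and 0.25 in adults, but the median SD between replicates of a line was 0.32 log2 units in larvae and 0.21 in adults; over all genes these replicate SDs were 0.26 and 0.20. In larvae the highest values were those of ND-15 (0.48 ± 0.11, SE by jackknife over lines) and COX6B (0.46 ± 0.19). In adults they were those of UQCR-14 (0.71 ± 0.08) and ND-ACP (0.66 ± 0.23). SdhA, with the largest stage difference, had -0.25 ± 0.19 in larvae and 0.54 ± 0.12 in adults. ATPsynF led its complex in larvae at 0.26 ± 0.18 and ATPsynCF6 in adults at 0.42 ± 0.12.

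**Figure D3:**
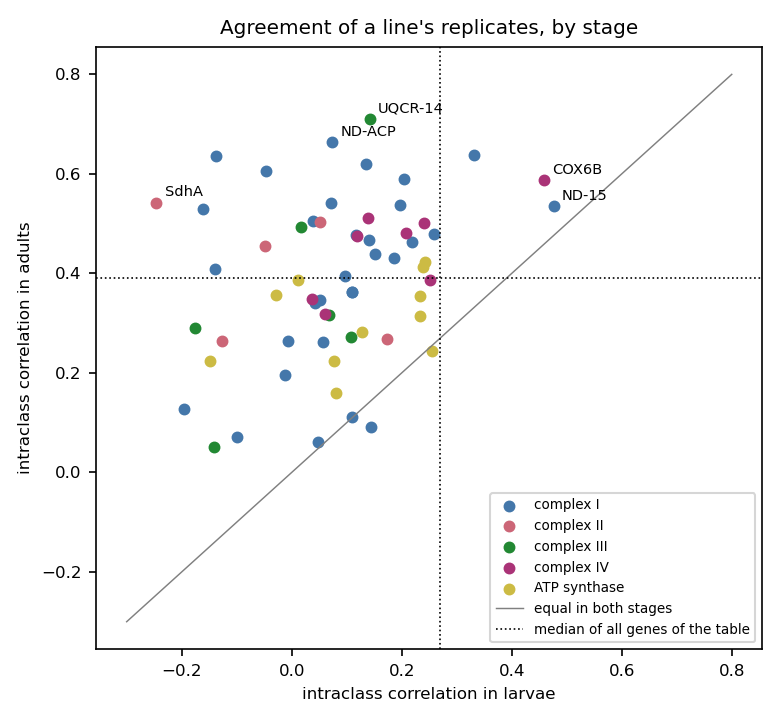
Intraclass correlation of the replicates of a line for each of the 61 genes, larvae on the horizontal and adults on the vertical axis; dotted lines are the medians of all genes and the grey line marks equal values. Of the 61 genes 59 lie above the grey line, and ND-15 and COX6B have the highest larval values.

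The line means of COX6B had the widest larval range of the 61 genes. They ran from 7.77 log2 CPM in DGRP801 to 9.93 in DGRP235, a range of 4.46-fold. DGRP801 stood apart, since the second lowest larval line, DGRP367, was at 8.49. In adults COX6B ran from 8.12 in DGRP158 to 9.12 in DGRP391, a range of 2.01-fold. UQCR-14 ran from 7.74 in DGRP158 to 9.10 in DGRP391 in adults, a range of 2.58-fold. Over the 61 genes the median range between the lowest and highest line was 2.36-fold in larvae and 2.15-fold in adults, against 2.30-fold and 2.02-fold over all genes.

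The subunit genes varied together over lines, across complexes as much as within them. Over the 41 line means the median Pearson's r between 2 members was 0.60 in larvae and 0.71 in adults (Spearman's rho 0.53 and 0.71), given as a description without a test because the genes share libraries and scaling. Between members and all other genes the median r was -0.01 in larvae and near 0 in adults. Pairs within a complex had a median r of 0.60 in larvae and 0.71 in adults, and pairs from different complexes 0.60 and 0.70. Complex IV was the most closely bound (0.77 and 0.82), followed by ATP synthase (0.69 and 0.80) and complex I (0.58 and 0.70), while complexes II (0.42 and 0.51) and III (0.33 and 0.53) were looser by Pearson's r; by Spearman's rho complex II in larvae, at 0.55, stood above complex I, at 0.52. Genes of complex IV and ATP synthase varied with each other at 0.72 and 0.81. Subunits encoded by mitochondrial DNA varied among themselves (0.75 and 0.85) but hardly with the nuclear subunits, at 0.05 in larvae and -0.03 in adults.

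In larvae part of this lay in a few lines: without the 3 lines of the highest mean level the median r fell from 0.60 to 0.41, and in adults from 0.71 to 0.66. The differences between the replicates of a line were also shared among the genes, at a median r of 0.72 over 39 lines in larvae and 0.67 over 41 lines in adults. Such differences hold no difference between lines where both labels are right. The 39 larval lines include DGRP882, DGRP897 and DGRP911, whose replicate 2 matched adults of other lines, and no value without them is given. In larvae the r exceeded that of the line means, so that the genes moved together between libraries labelled as replicates of 1 line as well.

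**Figure D4:**
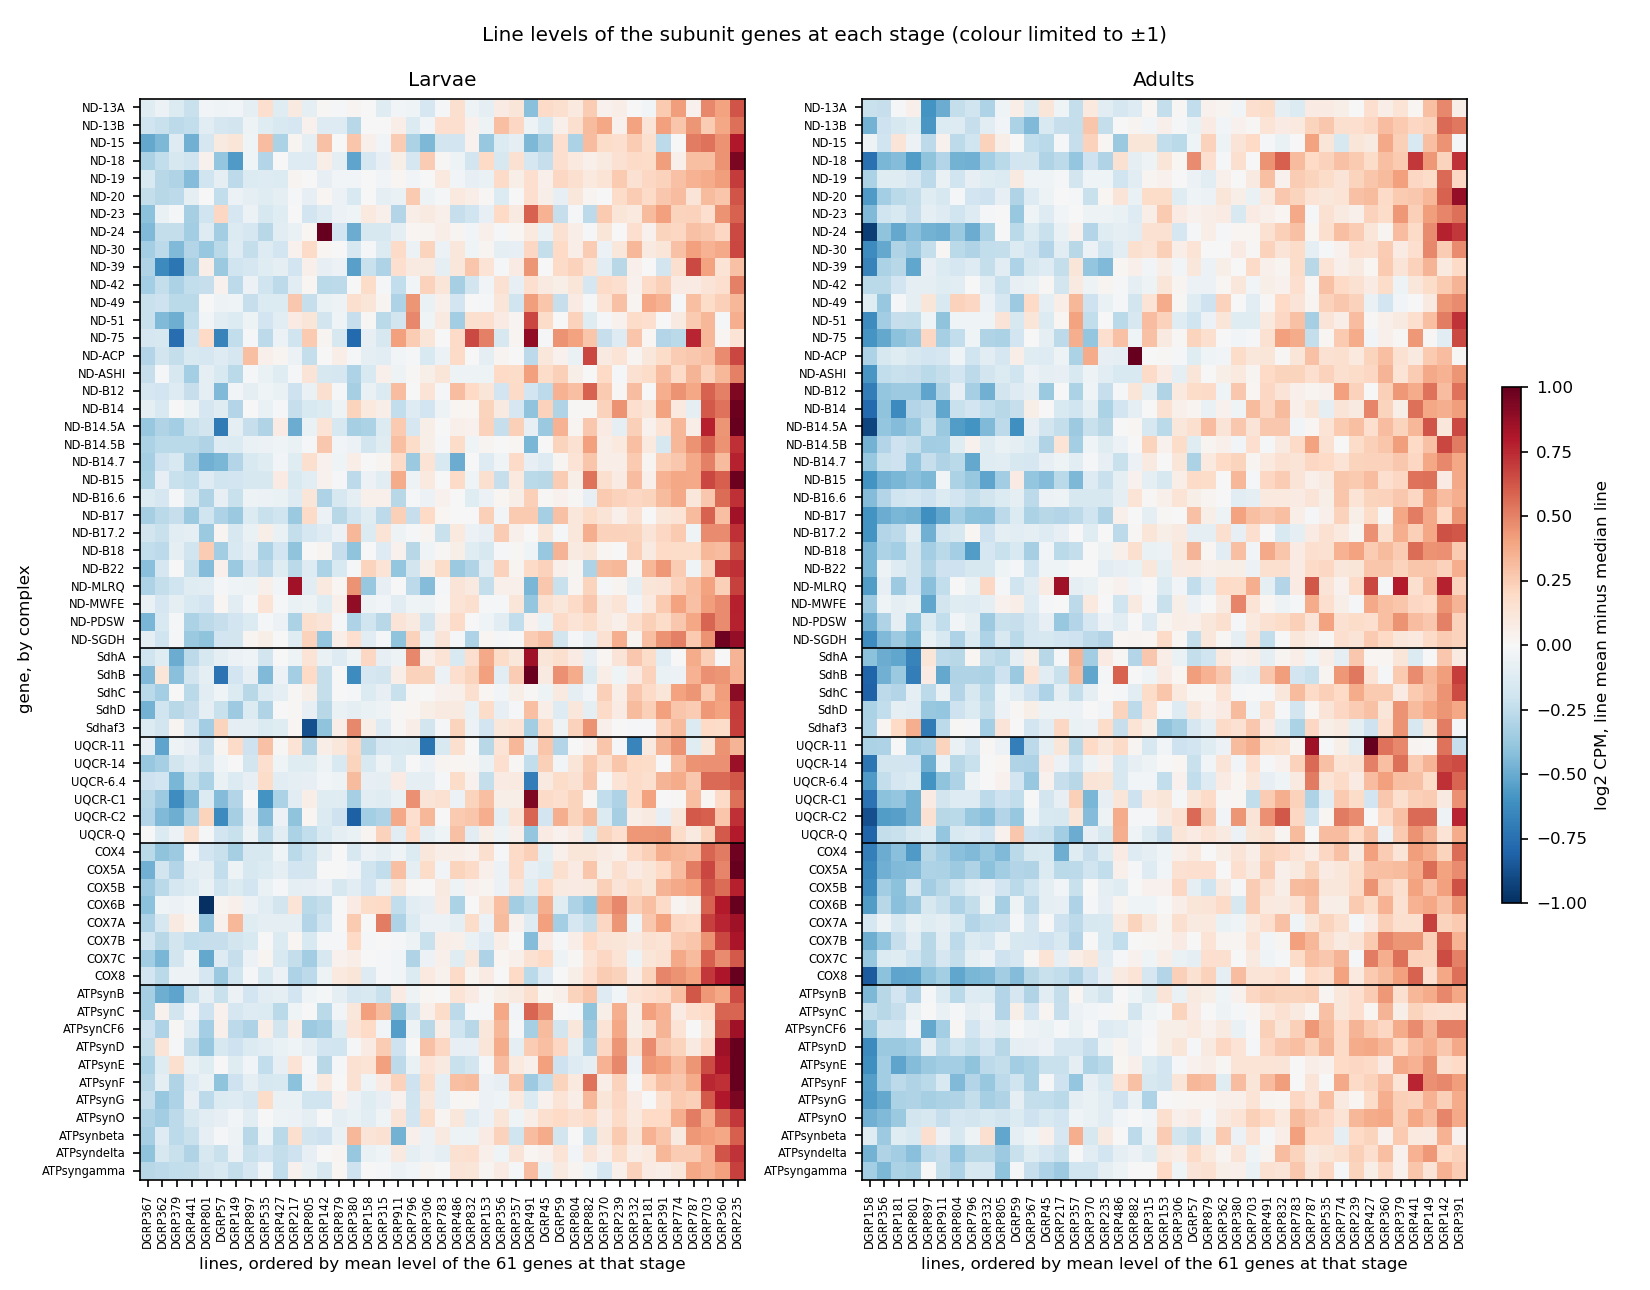
Line means of log2 CPM minus the median line for each of the 61 genes in larvae and in adults; columns are lines ordered by their mean over the 61 genes at that stage, rows are genes by complex, and colour is limited to 1 log2 unit either way. DGRP235 is high through all complexes in larvae and DGRP158 is low through all complexes in adults.

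The lines at the ends differed between the stages. In larvae DGRP235 had the highest mean over the 61 genes, 0.71 log2 units above the median line, and the highest line mean in 49 of the 61 genes; its replicates were at 0.43 and 0.99. DGRP360 followed at 0.44, with replicates at 0.01 and 0.86. In adults DGRP235 was ranked 17 of 41 counted from the lowest line, at -0.11. The lowest adult line was DGRP158, at -0.54 with replicates at -0.57 and -0.51, and it had the lowest line mean in 41 of the 61 genes; the lowest of all 41 lines in each of the 5 complexes, it ranged from -0.69 in complex III to -0.47 in ATP synthase. In larvae DGRP158 was close to the median line, at -0.06. DGRP391 was the highest adult line, at 0.39. Adult line levels of the 61 genes ran with those of muscle markers at r = 0.48 (rho 0.50) and of midgut markers at 0.45 (0.49), and larval ones with midgut markers at 0.41 (0.39), with the 2 ovary markers at -0.41 (-0.48), with the 1 flight muscle marker at -0.43 (-0.24), with roX1 at -0.36 (-0.40) and with muscle markers at 0.17 (0.11), over 41 lines each. The adult values were -0.35 (-0.25) for fat body markers, -0.24 (-0.37) for roX1, -0.22 (-0.16) for ovary markers and 0.11 (0.11) for the flight muscle marker, and the larval value for fat body markers was 0.04 (0.15). Testis markers were at -0.09 (-0.15) in larvae and -0.08 (-0.11) in adults; their part in the line differences was not tested. Neither stage showed a relation with the library total (r = -0.05 in larvae and 0.05 in adults).

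The third comparison asked whether the line differences carried over from larva to adult. With 1 exception they did not pass the test in these genes. The correlation of larval and adult line means over 41 lines was above 0 and passed an adjusted p of 0.05 in 1 of 61 genes (two-sided permutation test with 100000 permutations, Benjamini-Hochberg adjustment over all genes), against 17.2% of all genes. Its median over the 61 genes was 0.07, against 0.19 over all genes, and it was above 0 in 42 of 61. By complex the median was 0.20 in complex IV, 0.09 in complex III, 0.08 in ATP synthase, 0.04 in complex I and -0.07 in complex II.

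The exception was ND-15 (FBgn0031228; chromosome 2L, 114726 to 156030, plus strand), an accessory subunit of complex I. In larvae its libraries ran from 97.7 to 242 CPM with a median of 145, and in adults from 69.9 to 195 CPM with a median of 136. Pearson's r between the stages was 0.66 (permutation p = 2.0e-05, adjusted p = 6.3e-04) and Spearman's rho 0.70 (permutation p = 1.0e-05, the smallest that 100000 permutations can give). Within the 35 lines that formed 1 cluster of values r was 0.63 (permutation p = 7.0e-05, adjusted p = 0.0011 over 16 such relations; rho 0.64, permutation p = 5.0e-05), and leaving out the 2 lines at the greatest distance from the larval median gave 0.59. The 35 lines were grouped by the same values that were then correlated, so the p-values within the cluster are descriptions only. With the means of the sequencing pools removed r over 41 lines was 0.60 (permutation test, adjusted p = 0.0023). Without replicate 1 it was 0.60 (adjusted p = 0.0025), and without replicate 2 it was 0.36 (adjusted p = 0.14), no longer passing. DGRP787, with 1 larval library, and DGRP360 were among the 4 highest lines at both stages. Counted from the lowest line, their larval ranks were 39 and 38 and their adult ranks 40 and 39 of 41. DGRP235, the highest larval line at 8.13 log2 CPM, ranked 23 in adults by the same count. ND-15 also had the largest larval intraclass correlation, and in adults its mean r with the other members, 0.33, was the third lowest.

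**Figure D5:**
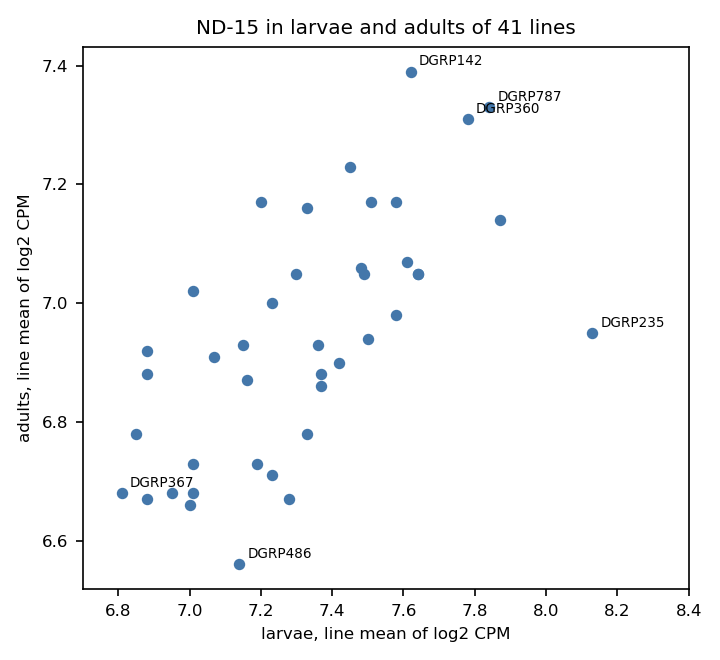
Line means of log2 CPM of ND-15, larvae on the horizontal and adults on the vertical axis, with 1 point for each of 41 lines. Lines with high larval values tend to have high adult values (r = 0.66), and DGRP235 lies apart at 8.13 in larvae and 6.95 in adults.

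The next members in order were ND-ACP (r = 0.42, permutation p = 0.011, adjusted p = 0.058), ND-MLRQ (0.38, adjusted p = 0.070), ND-MWFE (0.30, adjusted p = 0.19), COX6B (0.27, adjusted p = 0.23), ND-24 (0.27), COX8 (0.26), COX7A (0.25), COX5B (0.25) and UQCR-11 (0.24). The values of several of these rested on lines that stood apart. Within the main cluster of lines r was 0.14 for ND-ACP (38 lines), 0.08 for ND-MLRQ (32 lines), -0.11 for ND-24 (37 lines), -0.07 for ND-MWFE (34 lines) and -0.17 for COX5B (33 lines). COX6B was at 0.31 over 33 lines, COX8 at 0.24 over 37 and UQCR-11 at 0.21 over 34. COX7A was at 0.36 over 29 lines (permutation p = 0.056, adjusted p = 0.18) and at 0.88 over a second cluster of 8 lines (rho 0.88, exact permutation p = 0.0017, adjusted p = 0.014 over the 16 relations). Over all 41 lines COX7A did not pass (permutation test, adjusted p = 0.28). ND-ACP passed without the 3 larval libraries named above (0.57, permutation test, adjusted p = 0.020). The lowest values were those of ND-39 (-0.20), UQCR-C2 (-0.16) and SdhD (-0.16), none of which passed. SdhD was at -0.52 within a cluster of 19 lines (permutation p = 0.023, adjusted p = 0.091) and at -0.81 within another of 9 (exact permutation p = 0.0098, adjusted p = 0.052). All these clusters were formed from the same larval and adult values that were then correlated. The p-values within clusters are therefore descriptions and do not test a relation between the stages.

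The size of the stage difference also varied between lines. The line-by-stage interaction passed in 13 of 61 genes, against 43.1% of all genes (17 without the 3 larval libraries, against 44.7%): ND-13B, ND-20, ND-49, ND-51, ND-B14, ND-B14.5B, ND-B17.2 and ND-SGDH of complex I, SdhC of complex II, UQCR-14 of complex III, COX6B and COX7B of complex IV and ATPsynE of ATP synthase. For ND-51 the direction was the same in all 41 lines. For UQCR-14 the adult mean was the higher one in 18 lines and the larval mean in 23, and for COX6B in 10 and 31.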

How the data were processed

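RNA of whole larvae and whole adults was measured with stranded polyA libraries, per the labels' protocols. The authors deposited unnormalised counts for 7414 genes in 164 columns, 1 for each library, and every count is at least 11, so genes with lower counts in any library are not analysed here. FastQC, Trimmomatic and STAR and the builds BDGP6 and dm6 are named per the submitters' processing notes, without versions; the counting tool and whether it used strand are not given in the sources used here. Many members share exon sequence with a gene on the opposite strand. Among them are ND-15, ND-51, SdhA, SdhB, SdhD, UQCR-14, UQCR-C2, COX5A, COX7C, ATPsynF, ATPsyndelta and ATPsynbeta. On the same strand, 15.2% of ND-MWFE and 9.4% of COX6B exon bases overlap another gene. Names, lengths and positions came from the Ensembl BDGP6 annotation, which held 7349 of the identifiers and lacked 65.

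Members, lists, comparisons and roles were chosen with earlier results of these data known. Groups, lines and replicates came from the labels. The plan had allowed for leaving out identical columns, and 2 larval columns (DGRP787 replicate 1 and DGRP491 replicate 2) were left out. Counts were scaled with TMM factors and tested with the quasi-likelihood F test of edgeR 4.0.16 (R 4.3.3) over the whole table, with the Benjamini-Hochberg adjustment and a threshold of 0.05; DESeq2 1.42.0 was an alternative. Correlations used line means of log2 CPM with a prior count of 2 and two-sided permutation tests (100000 permutations; exact for the smallest clusters), computed in Python 3.11.15. Lines were clustered by single linkage at a distance of 0.15 of the range, and r was given within clusters of at least 6 lines. Each gene's clusters came from the same larval and adult line means that were then correlated, so p-values within them are descriptions. The scripts were tested on simulated data.

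Genes were named by rule: in each complex the 2 highest and 2 lowest log2 fold changes, the highest level per kilobase and the highest intraclass correlation at each stage, and over all complexes the 10 highest and 3 lowest correlations between stages; in other lists the 2 highest and 2 lowest. Other genes named, including those of the role groups, were chosen after their values were seen. The role groups, the co-variation without 3 lines and that of replicate differences were added after seeing the data. Replicate numbers did not pair samples: same-numbered larval and adult libraries of 39 lines deviated together at a median r of 0.05 (-0.37 to 0.30). Adjusted p-values of the line and interaction tests measure the spread between biological replicates, which are separate pools of animals. In the stage test, blocked by line, the spread also holds differences between lines in the size of the stage difference. The p-values of the correlations between stages come from permuting the line means.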

Additional observations from a re-analysis of the deposited data

Results flagged for a closer look

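The stage difference differed between lines, by the interaction test of edgeR with the Benjamini-Hochberg adjustment over all genes, for 6 of the members named by rule: ND-51 (adjusted p = 0.0330), SdhC (0.0486), UQCR-14 (0.0136), COX6B (0.00866), COX7B (0.0379) and ATPsynE (0.0276). The same test called 13 of all 61 members, against 43.1% of all genes, so passing it was less common among the members. COX6B was higher in larvae in 31 of 41 lines and ATPsynE in 25.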

How the results depend on the processing

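Scaling by library totals in place of TMM gave 33 members on the adult side and 14 on the larval side, and the direction differed for 15 of the 61 members; of those named by rule, ND-MLRQ (0.232), UQCR-14 (0.165), COX4 (0.171), COX5A (0.0133), ATPsynE (0.154) and ATPsynO (0.0788) turned above 0. Leaving out either replicate gave 12 to 18 members higher in adults and 22 to 35 higher in larvae. Of all 7414 genes it gave 3201 to 3232 higher in adults and 3354 to 3450 higher in larvae. The number of members that differed between lines in larvae was 22 with DESeq2 (67.0% of all genes), 2 with pool as a factor (30.9%), 3 with roX1 as a covariate (47.9%) and 4 with library totals (54.4%). The members whose r between stages was above 0 and passed the adjusted p numbered 2 without 3 larval libraries and 0 without replicate 2 (3 members were at an unadjusted permutation p under 0.05), a range of 0 to 1 over the left-out replicates. Of all genes, with r of either sign, 18.8% passed without the 3 larval libraries, 10.8% without replicate 1 and 8.47% without replicate 2. The cause of these changes was not tested. Another 53 summary values under alternatives stayed within their limits, and among single-gene fold changes 284 kept direction and call, 18 lost the call and 12 gained it. With the replicate block the stage test put 18 members on the adult side and 28 on the larval side (3337 and 3506 of all 7414 genes). Under the same block the line test called 7 members in larvae (47.3% of all genes) and 59 in adults (75.5%). The replicate numbers do not pair the samples. Line differences without a replicate could not be fitted, since 1 library per line leaves no residual degrees of freedom. Depth limits the lowest member, Sdhaf3, most, at a median of 10.0 CPM in larvae.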

Other observations

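A few genes stood apart from the other members of 1 line at both stages; these were picked after the values were seen and are given without a test. ND-MLRQ in DGRP217 was at 924 and 738 CPM in larvae and 886 and 1096 CPM in adults, against medians of 468 and 546 CPM over all libraries. ND-ACP in DGRP882 was at 467 and 272 CPM in larvae, the second being 1 of the 3 larval libraries that matched other lines, and at 371 and 369 CPM in adults, against medians of 213 and 179 CPM. ND-24 in DGRP142 was at 245 and 337 CPM in larvae and 478 and 288 CPM in adults, against 125 and 222 CPM. ND-MWFE in DGRP380 was at 199 and 136 CPM in larvae and 162 and 150 CPM in adults, against 89.9 and 120 CPM. All 4 libraries were above the median of their stage in each of these cases.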
